A study of Mus musculus with 2 samples.

Results

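The JAK, STAT and SOCS signalling genes were examined on 2 Affymetrix arrays, 1 of WT and 1 of circKcnt2-deficient cells. Both were labelled as group 3 innate lymphoid cells (ILC3s). Members were found by their platform gene symbol, which named a single transcript cluster for each of 9 of the 10 listed genes, out of 19505 named genes in all. They were the kinase genes Jak1, Jak2 and Tyk2, the transcription factor genes Stat3, Stat4, Stat5b and Stat6, and the inhibitor genes Socs1 and Socs3. Jak3 was not analysed here. Per the labels, one array held ILC3s of circKcnt2 knockout mice and the other wild-type ILC3s, both isolated by flow cytometry. The series' design text gives the gate as lineage-negative cells with high CD90 and low CD45, and both genotypes, which were littermates, as given dextran sodium sulfate (DSS), which damages the gut lining and is used to cause colitis in mice. circKcnt2 is a circular RNA made from the Kcnt2 transcript, and per the methods the knockout deleted an intron sequence needed for its formation. The circular RNA itself was not matched to a probe set, so its loss was not checked on these arrays. The labels give neither the age nor the sex of the mice, nor how many were used per array. Each genotype had a single array, so none of the differences could be set against replicates and no test of genotype was possible.

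Cytokine receptors of the type I and type II families have no enzyme of their own. A Janus kinase (JAK) bound to each receptor chain phosphorylates the receptor and then a signal transducer and activator of transcription (STAT), which dimerizes, enters the nucleus and binds DNA. Suppressors of cytokine signalling (SOCS) are induced by STATs and shut the pathway down, by blocking the kinase or by marking the complex for degradation. In ILC3s, IL-23 signals through JAK2, TYK2 and STAT3 and is a known inducer of IL-17 and IL-22, while IL-7 signals through JAK1, JAK3 and STAT5 and is needed for maintenance of the cells. Phosphorylation, through which JAKs and STATs are switched on, is not seen on an expression array.

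Promoter sequence was inspected because Socs1 and Socs3 are themselves STAT targets. RefSeq promoters (GRCm38.p6, 250 bases before to 50 after each start) were matched for all 9 genes, with a pair of starts each for Stat4 and Stat5b. The motifs searched on both strands were TTCNNNGAA, the gamma-activated site bound by most STATs, the same arms with 1 more base between them (TTC, any 4 bases, GAA), preferred by STAT6, and GAAA, any 2 bases, GAAA, the core of the interferon response element bound by IRF factors. They were found in 8.30%, 6.95% and 3.44% of 32851 promoters of the same length. Among the promoters of the 9 genes, 3 held a match, and this count was not tested against these shares. Socs3 had 1 gamma-activated site, Socs1 had 2 overlapping interferon response cores, and the second start of Stat4 had 1 core. Windows with these matches are shown with the motif in capitals, and the 100 bases before the Tyk2 start are shown because Tyk2 differed most between the arrays, although its promoter held none of the 3 motifs.
Socs3, chr11:117969472-117969560, minus strand: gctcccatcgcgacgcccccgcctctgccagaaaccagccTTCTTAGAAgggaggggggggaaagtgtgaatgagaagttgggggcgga
Socs1, chr16:10785570-10785659, minus strand: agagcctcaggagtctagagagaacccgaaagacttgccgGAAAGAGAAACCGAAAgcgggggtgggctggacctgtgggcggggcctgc
Stat4, chr1:52008103-52008192, plus strand: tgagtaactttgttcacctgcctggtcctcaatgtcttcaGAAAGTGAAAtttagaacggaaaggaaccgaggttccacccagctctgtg
Tyk2, chr9:21131276-21131375, minus strand: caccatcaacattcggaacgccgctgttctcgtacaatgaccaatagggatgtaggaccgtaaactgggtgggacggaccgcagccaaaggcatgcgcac
Counted from the start, with -1 the base before it, the Socs3 match lay at -154 to -146, the Socs1 matches at -83 to -74 and -77 to -68, and the Stat4 match at -97 to -88. A match describes the letters only and is not evidence of binding.

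Values are log2 levels per probe set, and differences are circKcnt2-deficient minus WT. A level of 2.73, reached by few olfactory and vomeronasal receptor genes, was taken as background, and 12502 named genes lay above it on at least 1 array. Levels of different genes depend on their probes and are not compared with each other. Fewer cells of a type and less RNA per cell cannot be told apart in these samples. All 14 T lineage markers were above background, at 6.70 to 9.98 in WT and 7.08 to 10.16 in circKcnt2-deficient cells, and so were all 8 measured markers of double-positive thymocytes (medians 7.69 and 7.87), although the gate removed lineage-positive cells. Of 11 measured ILC3 markers, 7 were above background on at least 1 array, namely Il7r, Id2, Kit, Il22, Ahr, Cxcr6 and Rora. Rora was above it on the WT array alone, whereas Il23r, Il1r1, Ncr1 and Ccr6 were below it on both arrays. These markers therefore did not bear out the label of a pure ILC3 sample, and the identity of the cells was not settled. No T lineage marker differed by 1.5-fold, and of the double-positive thymocyte markers 1 did, Rag2 (6.17 and 6.80). Of 5 B and plasma cell markers above background, Jchain was 5.34-fold lower in circKcnt2-deficient cells (6.72 and 4.30) and Cd79b 1.94-fold higher (3.91 and 4.87). Of 7 NK cell and ILC1 markers above background, Klra9 (6.45 and 5.17), Klra7 (3.94 and 2.74) and Klrk1 (at least 1.38-fold) were lower. Klrk1 was above background on the WT array alone. Gzma (6.36 and 7.02) was higher. The 3 lower calls became 1 with a stricter floor, set at the median of named genes, with a floor at the highest level of control probe sets graded by GC content (GC-matched controls) and after adding 32, and the higher call became 0 after the loess correction, quantile normalization and adding 32, as did that of Rag2. The call of Cd79b became 0 with the floor at the GC-matched controls and after adding 32. Of 4 myeloid markers, Itgam was at least 1.58-fold higher and Adgre1 at least 1.24-fold lower, each above background on a single array. Both myeloid calls became 0 with either of the higher floors and after adding 32. The Y-linked genes Uty (5.26 and 1.24), Kdm5d (4.63 and 1.52) and Eif2s3y (5.14 and 2.45) were above background on the WT array alone. Male cells were thus evident on the WT array only, so sex and genotype cannot be told apart here. These marker and Y-linked values differ along with genotype, and their part in the differences below was not tested.

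JAK kinase genes were compared first. Tyk2, whose product serves the receptors of IL-12, IL-23 and type I interferons, was at 5.56 in WT and 6.29 in circKcnt2-deficient cells. This 1.66-fold difference (0.73) was the largest of the 9 genes in either direction and the only one past 1.5-fold. Of all genes above background, 6.26% differed by as much, and of the 625 genes of like level 4.16% did. It lay within the middle 95% of these genes (-0.49 to 0.78). It was 0.60 after quantile normalization and 0.67 with the median difference subtracted, but 0.58 after a loess correction, just under 1.5-fold, and 0.48 after adding 32 before the logarithm. Jak2, the partner kinase in IL-23 and IL-12 signalling and the kinase of IFN-gamma and GM-CSF receptors, was at 7.24 and 7.40 (difference 0.16). Its difference was close to the median of genes of like level (0.13). Jak1, which acts at gamma chain, gp130 and interferon receptors, was at 6.56 and 6.37 (-0.19), and 10.1% of genes of like level were as low or lower. The 3 kinase genes thus did not share a direction.

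**Figure D1:**
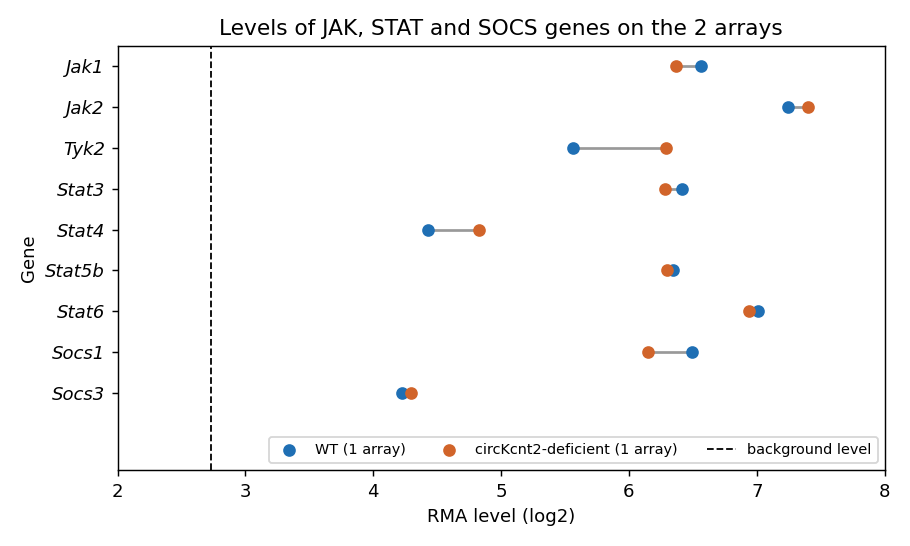
RMA level (log2, x axis) of each of the 9 genes (y axis) on the WT array (blue) and the circKcnt2-deficient array (orange), with the background level of 2.73 as a dashed line. All points lie above background, and the gap is widest for Tyk2 (5.56 and 6.29).

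Among STAT genes, Stat4, which carries IL-12 signals and drives Ifng, was at 4.43 in WT and 4.83 in circKcnt2-deficient cells. The difference of 0.40 (1.32-fold) was below the threshold, and 31.2% of genes of like level differed by as much. The other STAT genes differed little and were each slightly lower on the circKcnt2-deficient array. Stat3, the factor downstream of IL-6 and IL-23 that is needed for Il17a and Il17f in T cells, was at 6.41 and 6.28 (-0.13). Stat5b, which carries IL-2 and IL-7 signals, was at 6.34 and 6.30 (-0.05). Stat6, the factor of IL-4 and IL-13, was at 7.01 and 6.94 (-0.07). Genes of the level of Stat3 and Stat5b had a median difference of 0.16, and that of Stat6 0.15, so all 3 lay below the typical gene of their level. After the loess correction they were at -0.28, -0.20 and -0.22. Stat5a, a near-identical neighbour of Stat5b, was at 6.37 and 6.28, and whether probes of the pair hybridize to both was not examined. For reference, Il17a was at 4.38 and 11.48 and Il17f at 3.90 and 11.21, differences of 137-fold and 159-fold. The Stat3 transcript differed by 1.09-fold, and phosphorylation of STAT3 is not seen on these arrays.

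The SOCS genes were compared next. Socs1, an inhibitor of JAK1, JAK2 and TYK2 that is strongly induced by interferons and gamma chain cytokines, was at 6.49 in WT and 6.15 in circKcnt2-deficient cells. The difference of -0.34 (1.27-fold lower) was the lowest of the 9 genes. Of 625 genes of like level, 3.68% were as low or lower, although the value lay inside their middle 95% (-0.41 to 0.61). It was -0.50 after the loess correction and -0.25 after adding 32. Socs3, which binds gp130, restrains IL-6 and IL-23 signalling and is a direct STAT3 target, was at 4.22 and 4.30, a difference of 0.07. These levels were 1.49 and 1.57 above background. Socs1 and Socs3 therefore differed in direction, but neither passed 1.5-fold.

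**Figure D2:**
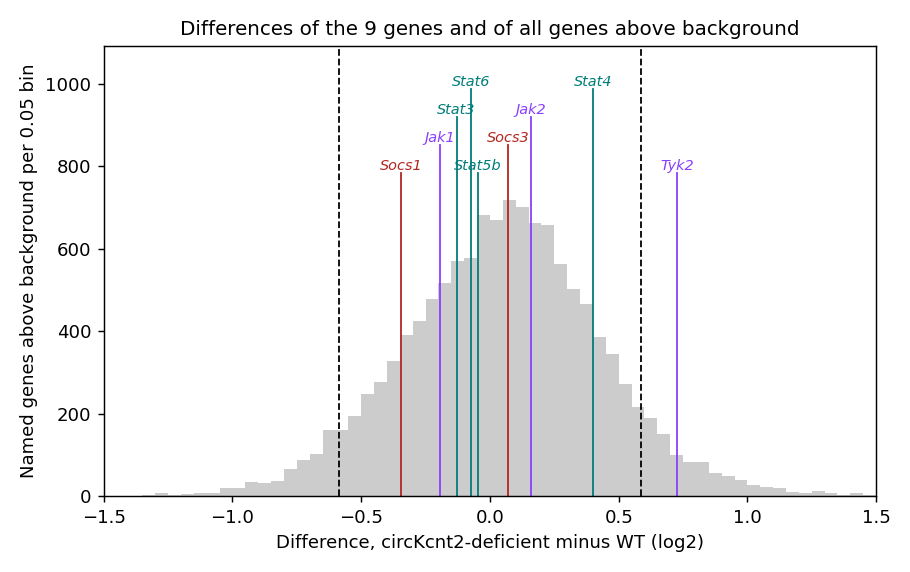
Number of named genes above background (y axis, bins of 0.05) by difference between the arrays (log2, x axis), with the 9 genes marked by lines and the 1.5-fold threshold by dashed lines. Genes beyond 1.5 in size are not drawn. Tyk2 alone lies past a dashed line, and Socs1 is the lowest of the 9.

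As a group, 1 of the 9 genes was called at least 1.5-fold higher, beside 7.66% of all genes above background, and 0 were called at least 1.5-fold lower, beside 5.22%. Both counts are near these shares. The split over all genes was 958 higher and 652 lower, and 722 and 870 with the median difference subtracted, or 69 and 14 after adding 32. The median difference of the 9 genes was -0.05, beside 0.06 for all genes above background, with 4 genes above 0 and 5 below. Set against genes of like level, 4 lay above the median and 5 below, and none lay outside the middle 95%. By role, the median was 0.16 for the 3 JAK genes, -0.06 for the 4 STAT genes and -0.14 for the 2 SOCS genes. These are not read as differences between roles. The JAK value is that of Jak2, close to the median of genes of its level (0.13). The SOCS value lies between Socs1 (-0.34) and Socs3 (0.07), which differed in direction. Loess correction, quantile normalization and subtraction of the median difference each lowered all 9 differences. The 5 genes below 0 therefore could not change sign, and only the 4 above 0 could. These 4 stayed above 0, but Jak2 came down to 0.01 after the loess correction and Socs3 to 0.01 with the median difference subtracted. Over both arrays, 23 control probe sets of graded GC content ran up to 5.91, and 3 of the 9 genes (Stat4, Socs3 and, on the WT array, Tyk2) were not above that level.

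**Figure D3:**
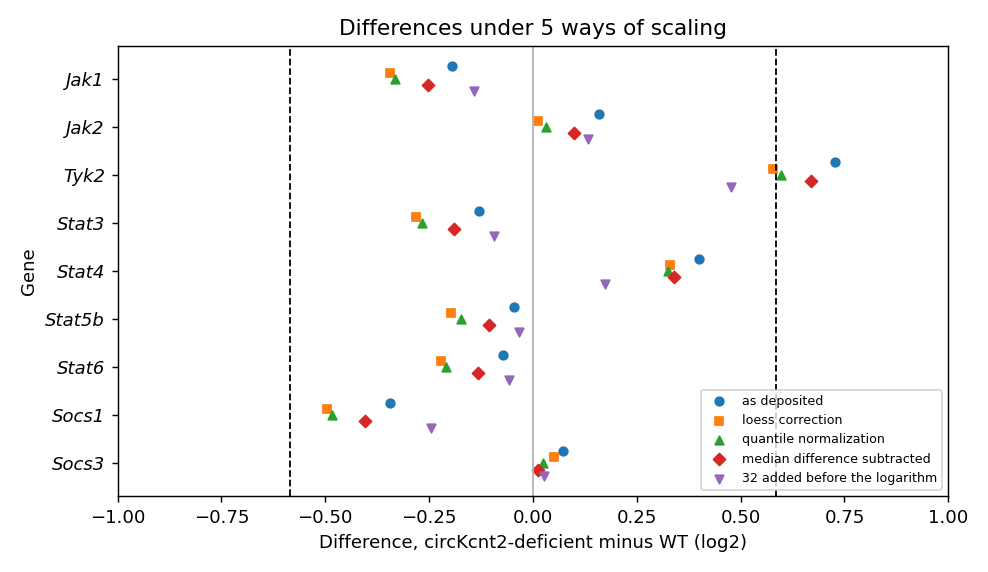
Difference between the arrays (log2, x axis) of each of the 9 genes (y axis) as deposited and under 4 other scalings, with the 1.5-fold threshold as dashed lines. No gene crosses 0, and Tyk2 lies past the threshold under 3 of the 5 scalings shown.

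The rest of the STAT and SOCS family also held no large difference. Of 8 measured genes, 7 were above background (median -0.00). None of the 7 differed by 1.5-fold, beside 7.66% of all genes higher and 5.22% lower. A count of 0 among 7 genes is near these shares. Stat2, which acts in type I interferon signalling, was at 5.21 and 5.58, and Socs4 was at 5.65 and 5.78. Socs6 was below background on both arrays. The direct STAT5 targets Cish (3.30 and 3.08) and Socs2 (3.47 and 3.47) lay only a little above background.

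Proteins that modify the pathway were then compared. The 14 phosphatase, PIAS, SH2B and CBL genes had a median difference of 0.20. Of these, 1 was at least 1.5-fold higher, beside 7.66% of all genes above background, and 0 lower, beside 5.22%. That gene was Sh2b1, an adaptor known to enhance JAK2 activity, at 4.79 and 5.39 (0.60). It was under 1.5-fold after each of the loess correction, quantile normalization, subtraction of the median difference and addition of 32. Ptprc, which encodes the CD45 phosphatase used in the sort gate, was at 9.16 and 9.36, Cbl, a ubiquitin ligase, was at 8.27 and 8.47, and Ptpn1, a phosphatase of JAK2 and TYK2, was at 7.34 and 7.54. None of the 6 genes for the ubiquitin ligase that SOCS proteins recruit passed 1.5-fold (median 0.26), beside the same shares of all genes. The adaptors Elob (7.91 and 8.15) and Eloc (6.35 and 6.64) were higher on the circKcnt2-deficient array, and Rnf7, the RING subunit, was lower on it at 6.61 (difference -0.39). Of genes of like level, 31.2% were as high as Elob or higher and 28.6% as high as Eloc, while 2.08% were as low as Rnf7. The median of these partner genes was 0.12 after the loess correction and 0.13 after quantile normalization.

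Receptor subunits that bind JAKs were next. Of 31 measured, 24 were above background, of which 1 was at least 1.5-fold higher, beside 7.66% of all genes, and 1 lower, beside 5.22% (median 0.07). Csf2ra, the GM-CSF receptor alpha chain, was at 2.86 and 3.69, and Csf3r, the G-CSF receptor, was at least 1.35-fold lower because it was below background on the circKcnt2-deficient array. Both calls became 0 with the stricter floor, with the floor at the GC-matched controls and after adding 32, and after the loess correction there were 2 higher and 0 lower. Il7r (7.86 and 7.70), Il6st (7.70 and 7.72), which encodes gp130, and Ifngr1 (7.14 and 7.45) did not pass 1.5-fold. The median of the receptor list changed sign to -0.04 after the loess correction and after quantile normalization. In the IL-23 receptor, Il12rb1, the chain that binds TYK2, was at 4.58 and 4.60, and Il23r, the chain that binds JAK2, was below background (1.91 and 2.16). Tyk2 thus differed more than the receptor chain its product binds, with no test of that contrast possible.

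Among 19 cytokine genes that signal through JAKs, 13 were below background on both arrays. Of the 6 others, Osm and Ifng were above it on the WT array alone, so the filter fixed their direction and the 6 are not read as a group. With no floor the median of the 19 was -0.18, but it includes the 13 genes below background and is not read as a group result either. For the 6 others, genes of like level had median differences from -0.34 (Osm) to 0.04 (Il13). Of the 6, 0 were called at least 1.5-fold higher, beside 7.66% of all genes above background. Ifnb1 and Osm were called at least 1.5-fold lower, beside 5.22%. Ifnb1 was at 3.37 and 2.78, and Osm was at least 1.18-fold lower, since it was below background on the circKcnt2-deficient array. Il13 was at 4.37 and 4.25 and Il22, a STAT3-dependent product of ILC3s, at 3.35 and 2.93. None of the 6 lay more than 1.64 above background. The 2 calls became 0 with the stricter floor, with the floor at the GC-matched controls, after the loess correction and after adding 32. After quantile normalization 1 of them was left.

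Genes taught as STAT targets were compared last. Of 25 measured, all were above background on at least 1 array, 5 were at least 1.5-fold higher, beside 7.66% of all genes, and 3 lower, beside 5.22%, and the median was 0.07. The higher genes were Il17a, Il17f, Batf (5.71 and 10.73), Myc (6.97 and 7.77) and Pim2 (3.84 and 4.52). MYC drives growth and PIM2 is a survival kinase. The list was chosen with these differences known, and the study took Batf from these arrays, so they are no independent evidence of direction. The lower genes were Fos (6.29 and 4.97), Junb (6.95 and 5.88) and Osm, of which Fos and Junb are immediate early genes that many signals other than STATs induce. Osm passed the floor through the WT array alone, and the lower count was 2 with the stricter floor, with the floor at the GC-matched controls and after the loess correction. The survival gene Bcl2 (8.22 and 8.37) and the cyclin gene Ccnd3 (9.54 and 9.74) did not pass 1.5-fold. The list thus held large differences in both directions.

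**Figure D4:**
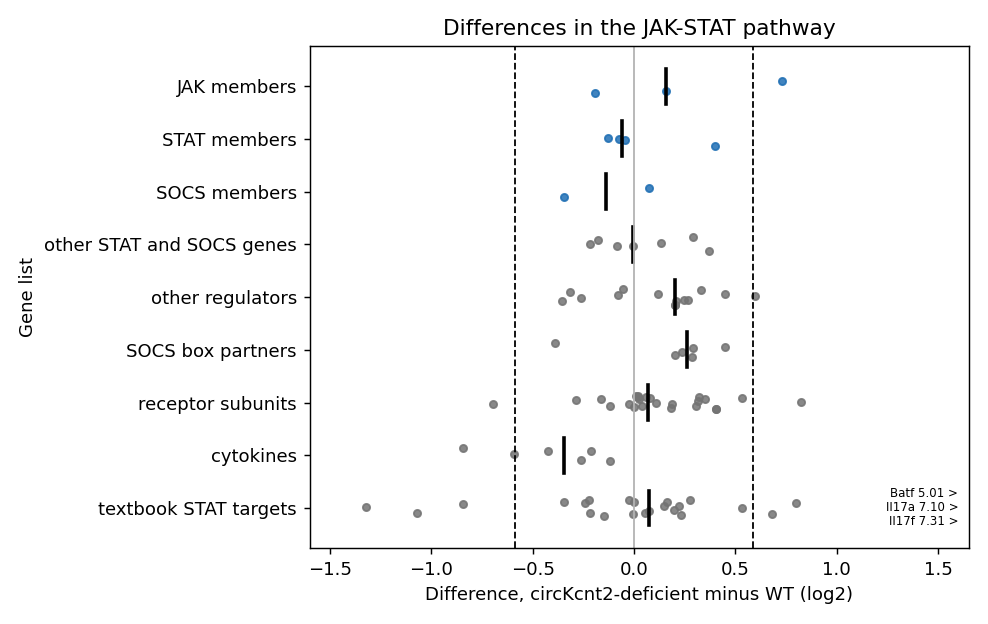
Difference between the arrays (log2, x axis) of genes above background in each list of the pathway (y axis), 1 point per gene, with the list median as a black bar and the 1.5-fold threshold as dashed lines. The 9 genes are in blue in the top 3 rows, and Batf, Il17a and Il17f, beyond the axis, are given by their values (5.01, 7.10 and 7.31).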

How the data were processed

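RNA of cells sorted as ILC3s was extracted with Trizol, labelled with biotin and hybridized to Affymetrix arrays. There was 1 array for WT and 1 for circKcnt2-deficient cells, as grouped by the genotype label. The authors deposited log2 probe set levels made with Affymetrix Power Tools and RMA, per the submitters' processing notes, which name no version. RMA brings arrays close to a common distribution, so a global shift in RNA content would not be seen, although sorted values of the deposited arrays still differed by up to 0.28.

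Of 29129 probe sets, 19572 had 1 platform gene symbol, 0 had several and 9557 had none listed, and only the first were named, updated through RefSeq names (GRCm38.p6), and probe sets sharing a gene were averaged (55 genes, none of them a member). For background, the higher value of each of 1410 olfactory and vomeronasal receptor genes was taken, and their 95th percentile used. A gene below it on a single array has only a bound ("at least"), counted by its measured value. With 1 array per group no p-value is given, and genes past 1.5-fold (0.58 on the log2 scale) were called. Genes of like level are those in the same of 20 bins of mean level. The counting was tested on simulated data.

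Members and lists were chosen with earlier results of these data known. All members were named, and of other lists the genes past 1.5-fold and up to 3 with the highest mean level, which were left out for cell type markers. Further genes (Cish, Socs2, Socs6, Id2, Ifng, Il23r, Il12rb1, Il1r1, Ncr1, Ccr6, Kit, Ahr, Cxcr6 and Rora) were named after their values were seen. Alternatives were no floor, a stricter floor (the median of named genes), a floor set by the highest of the GC-matched controls, loess (span 0.3), quantile normalization, subtraction of the median difference, 32 added before the logarithm, the probe set with the highest mean, and thresholds of 2-fold and of 0.32 on the log2 scale. Python 3.11.15, pandas 2.3.3 and statsmodels 0.14.6 were used.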

Additional observations from a re-analysis of the deposited data

How the results depend on the processing

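With 1 array per genotype, leaving out an array was not run. No paired analysis was possible because each genotype had 1 array and the labels give no replicate numbers.

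The count of 1 gene at least 1.5-fold higher, Tyk2, became 0 after the loess correction, after adding 32 before the logarithm and with the 2-fold threshold, and 2 (Tyk2 and Stat4) with a threshold of 0.32 on the log2 scale. The count of 0 genes at least 1.5-fold lower became 1 (Socs1) with that threshold and did not move under the other settings. The median difference of the members, -0.05, was -0.073 with a floor set by the highest of the GC-matched controls, which kept 7 of 9 genes, -0.20 after the loess correction, -0.17 after quantile normalization, -0.11 with the median difference subtracted and -0.033 after adding 32. It stayed below 0 under each of these, which is no sign of stability. The loess correction, quantile normalization and median subtraction lowered every member, and adding 32 cannot change the sign of a gene. The floor left out Stat4 and Socs3, both with differences above 0.

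Over all genes, the 958 higher and 652 lower became 139 and 64 at 2-fold, 2860 and 2016 at 0.32, 69 and 14 after adding 32 and 199 and 31 with the GC-matched floor, and the lower count became 271 with the stricter floor and 1044 with no floor. Signal over background limits Stat4, Socs3 and most cytokine genes. The cause of these changes was not tested.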
